A study of Mus musculus with 4 samples.

Results

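The genes described here are 8 autosomal long noncoding RNA genes of mouse B cells, Malat1, Neat1, Mir155hg, Lockd, Zfas1, Gas5, Gm43305 and E330020D12Rik, among 32285 genes counted. They were listed by name, with earlier results of these data in view, so the values that led to the list are given as a description. Each was present in both mRNA libraries and passed the filter on low counts in every comparison of summed B cells. The cells were splenic B cells taken on day 8 after immunization of 6 recipient mice with sheep red blood cells coupled to hen egg lysozyme (HEL).

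All recipients were CD45.1+ wild-type mice that had received a mixture of B cells with the MD4 transgene, whose antigen receptor recognises HEL. In the 3 Dock8wt/wt recipients the mixture held CD45.1+ Dock8wt/wt MD4 cells and CD45.2+ Dock8wt/wt MD4 cells carrying a BCL2 transgene (BCL2.Tg). In the 3 Dock8cpm/cpm recipients the CD45.2+ BCL2.Tg MD4 cells were instead homozygous for cpm, an ENU-induced mutation that leaves the cell without DOCK8, and the CD45.1+ partner cells were again Dock8wt/wt. HEL+ CD95+ cells were sorted as CD45.1+ or CD45.2+, and each sort gave 1 mRNA library in which antibody hashtags mark the recipient. Sort, donor strain, BCL2 transgene and library therefore cannot be told apart, and a CD45.1+ recipient's own HEL-binding cells would fall in the CD45.1+ sort. The mice were young adults of both sexes, matched for age within each experiment, and the BCL2 transgene is active in B cells.

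Long noncoding RNAs are transcribed and processed like messenger RNAs but code for no long protein. Malat1 and Neat1 stay in the nucleus, Malat1 in speckles rich in splicing factors and Neat1 as the scaffold of paraspeckles. Mir155hg is the precursor transcript of miR-155, a microRNA that germinal centre B cells need for a full response, while Zfas1 and Gas5 carry small nucleolar RNAs (snoRNAs), guides of ribosomal RNA modification. Lockd is transcribed next to Cdkn1b, the gene of the cell cycle inhibitor p27. The roles of Gm43305 and E330020D12Rik are not described here.

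The sequences below are those the results turn on, from the RefSeq and GENCODE annotation of GRCm38. Mir155hg spans chr16:84703167-84715245 on the + strand. Its mature product miR-155-5p lies at chr16:84714143-84714165, within the transcribed span, and is shown with its seed, bases 2 to 8, in capitals because the seed sets which targets it pairs with.
mmu-miR-155-5p: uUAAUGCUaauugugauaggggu
mmu-miR-155-3p: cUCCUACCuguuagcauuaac
The 3 snoRNA genes inside Zfas1 (chr2:167062934-167065862, + strand) and the 10 annotated snoRNA entries inside Gas5 (chr1:161034422-161038539, + strand) are of the box C/D kind. In the annotation used here each lies within an exon of at least 1 transcript of its host, and 2 of the Gas5 entries, Gm22489 and Snord78, hold no exact box C. One of each host is shown, Snord12 at chr2:167065276-167065365 and Snord47 at chr1:161038082-161038158, with box C (TGATGA) and box D (CTGA) in capitals.
Snord12: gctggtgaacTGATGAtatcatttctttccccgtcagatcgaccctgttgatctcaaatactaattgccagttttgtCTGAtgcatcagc
Snord47: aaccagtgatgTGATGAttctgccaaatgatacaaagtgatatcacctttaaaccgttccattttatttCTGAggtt
The assay captures RNA by its poly(A) tail, so internal runs of 12 or more A were sought. Those of Malat1 and Lockd are shown, in capitals. Zfas1 also has a run, of 17 A at positions 1359 to 1375 of a transcript of 2302 bases. Malat1 (chr19:5795690-5802672, - strand) has a run of 12 A at positions 6674 to 6685 of a transcript of 6983 bases. Lockd has 19 A, the longest of its 2 such runs, at positions 4778 to 4796 of 5662 bases. The part of these runs in the levels was not tested.
Malat1 A run: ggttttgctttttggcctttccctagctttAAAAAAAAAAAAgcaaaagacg
Lockd A run: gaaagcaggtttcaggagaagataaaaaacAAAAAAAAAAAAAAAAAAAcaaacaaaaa

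Promoter windows of 300 bases, from 250 before to 50 after the RefSeq start, are shown for 3 genes whose levels moved with cell state as described further on: Zfas1 and Gas5, which moved together, and Lockd, which moved with mitotic genes. Both strands were searched for the TATA box TATAAA, for CCAAT boxes, the cAMP response element TGACGTCA, the cell cycle homology region TTTGAA, the GC box GGGCGG, the E2F site TTTCCCGC and the consensus NF-kB site, motifs chosen after the sequences had been seen. Matches are in capitals, and neighbouring GC boxes overlap in places.
Zfas1, chr2:167062684-167062983, + strand: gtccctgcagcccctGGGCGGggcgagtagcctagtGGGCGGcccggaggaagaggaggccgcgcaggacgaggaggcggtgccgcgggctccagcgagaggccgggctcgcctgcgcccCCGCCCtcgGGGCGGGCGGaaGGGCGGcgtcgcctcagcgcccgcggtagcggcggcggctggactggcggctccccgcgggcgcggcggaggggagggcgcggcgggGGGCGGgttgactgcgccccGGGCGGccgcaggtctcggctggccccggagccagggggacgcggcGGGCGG
Gas5 (the second of its 2 windows), chr1:161034916-161035215, + strand: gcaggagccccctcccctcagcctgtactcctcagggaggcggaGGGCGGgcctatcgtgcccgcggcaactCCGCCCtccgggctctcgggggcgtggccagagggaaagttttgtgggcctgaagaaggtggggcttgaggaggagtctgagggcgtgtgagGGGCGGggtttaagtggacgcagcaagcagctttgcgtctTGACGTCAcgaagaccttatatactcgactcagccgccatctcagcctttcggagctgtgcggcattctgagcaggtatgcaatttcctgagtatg
Lockd, chr6:134928842-134929141, + strand: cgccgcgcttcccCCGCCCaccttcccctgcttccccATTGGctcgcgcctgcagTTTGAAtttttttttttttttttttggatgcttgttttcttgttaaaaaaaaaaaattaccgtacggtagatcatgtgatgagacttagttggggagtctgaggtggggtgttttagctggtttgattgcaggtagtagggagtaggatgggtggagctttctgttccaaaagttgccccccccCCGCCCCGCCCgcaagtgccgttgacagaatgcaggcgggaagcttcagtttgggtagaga
The Zfas1 window held 9 GC boxes and was 83.0% G or C, against a median of 52.7% over 32841 windows of the same length, of which 35.7% held a GC box. The Gas5 window held TGACGTCA at position -46 from the start, a motif in 1.79% of windows. The Lockd window held TTTGAA at -195 and a reversed CCAAT at -213, in 17.9% and 37.4% of windows. TTTGAA was also in the windows of 9 of the 12 mitotic genes that had one. These are matches of letters and not measured sites.

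After filters on hashtags, mitochondrial counts and genes detected, 6488 CD45.2+ and 3204 CD45.1+ cells remained, and 6 barcodes were kept in both libraries, of 38 found in both before the filters. Counts of unique molecular identifiers (UMIs) were summed per recipient and sort over cells outside plasma cell and T cell clusters, 38 to 1926 cells and 298916 to 12616452 UMIs per sum, and given as counts-per-million (CPM). B cell markers summed to 6768 to 7833 CPM, T cell markers to 20.1 to 73.8, myeloid markers to 19.3 to 120 and erythroid and platelet markers to 22.0 to 102 CPM. The myeloid gene Lyz2 (1.64 against 57.9 CPM) and the haemoglobin gene Hbb-bt (32.7 against 56.7 CPM) were called lower in CD45.2+ than in CD45.1+ sums of Dock8wt/wt recipients, and their part in the results was not tested. Of 10 T cell markers 2 passed the filter on low counts, and they moved in opposite directions. Lck, also among the 10 leading genes of the LZ2-like cluster described further on, was called lower (23.5 against 49.1 CPM), and Cd3d gave 1.44 on the log2 scale without a call (SE 0.51, adjusted p = 0.158). Dock8 itself lay between 95.8 and 126 CPM in every sum, and since cpm is a point mutation its level does not check the label. In such sums fewer cells of a type and less RNA per cell cannot be told apart.

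The sex-linked genes went against the study's note on donor sex, so these sums are called by their label. Xist reached 1327 to 1609 CPM in the CD45.2+ sums of Dock8wt/wt recipients and 284 to 452 CPM in those labelled Dock8cpm/cpm. Ddx3y, on the Y chromosome, was at 1.98 to 2.86 CPM in the first and 54.3 to 70.3 CPM in the second. Of the 182 CD45.2+ cells labelled Dock8cpm/cpm, 46 had 2 or more Xist counts. Some results that rest on the labelled cells are also given without those 46. The sort test of E330020D12Rik and the genotype levels within subsets of states are not. Before plasma cells and T cells were left out, 57, 44 and 101 kept CD45.2+ cells were labelled Dock8cpm/cpm and 2007, 2607 and 1672 Dock8wt/wt. Donor sex and Dock8 genotype cannot be told apart, nor can an exchange of the genotypes from an exchange of the sexes in the note. Had the genotypes been exchanged, every difference between CD45.2+ cells by genotype given here would have the opposite direction. The levels by state and the CD45.2+ side of the sort comparisons given for Dock8wt/wt recipients would then belong to Dock8cpm/cpm cells, and the reverse. The comparison of CD45.1+ cells by partner genotype would also turn if the exchange held for both sorts.

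Cells were grouped into states by clustering without the 8 genes, and each state took the name of the marker list of the study that its leading genes matched best, written here with "-like". The lists were made by the study on these libraries. The cluster called LZ2-like matched the LZ2 list with 14 of its leading genes and the LZ4 list with 12. At resolution 1.2 there was a cluster of 1234 cells named LZ4 and one of 323 named LZ2, and with hashtags normalized over each cell the cluster with this marker set was named LZ4, with 16 genes against 14. In the study's lists, Zfas1 marked Activated_Memory, Lockd Activated2 and Mir155hg LZ1, so a high level there is no independent result. Levels by state are means over the 3 Dock8wt/wt recipients in CD45.2+ cells, for 12 states with at least 20 cells in each recipient. LZ and DZ stand for the light and dark zones of the germinal centre, where B cells are selected and divide, and PC for plasma cells.

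Mir155hg was high in one light zone state. In LZ1-like cells it reached 93.5, 121 and 138 CPM in the 3 recipients, a mean of 118 ± 22.7 CPM (SD, n = 3). In LZ2-like cells, next in order, it was at 33.5, 25.2 and 26.2 CPM. The recipients' values in LZ1-like cells did not overlap those of any lower state, while LZ2-like, Activated_Memory-like (21.5 ± 4.70 CPM) and EarlyGC2-like cells (21.19 ± 13.03 CPM) overlapped one another. Plasma cells had the least, 3.15 ± 5.45 CPM in PC1-like, 4.26 ± 2.17 in PC3-like and 6.26 ± 2.39 CPM in PC2-like cells, with 2 of 3 PC1-like groups at 0 counts.

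Counted by cell, 98 of 270 LZ1-like cells had a Mir155hg count, 36.3% with an exact 95% binomial interval of 30.6 to 42.3%, at a median of 6143 UMIs. In LZ2-like cells the share was 10.4% at 5000 UMIs. In the T cell cluster, here joined over both sorts and both groups of recipients, it was 2 of 107 cells, 1.87%, at 3163 UMIs. After thinning to 2000 UMIs, among cells with at least that many, the shares were 13.3%, 4.55% and 1.06%. Intervals of shares cover counting error only.

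The 3 genes whose state levels were most like those of Mir155hg, by Pearson correlation of log2(CPM + 1) over the 12 states among 5263 genes, were Nfkbie, an inhibitor of NF-kB (r = 0.90), Bcl2a1d, a survival gene of the BCL2 family (r = 0.89), and Ndufaf4 (r = 0.87). Over the 8 states available in CD45.1+ cells the values were 0.81, 0.90 and 0.80. Of 17 genes of the B cell receptor, CD40 and NF-kB response, 11 were highest in the LZ1-like state, among them Myc at 56.8 CPM, Nfkbia at 307 CPM and Traf1 at 174 CPM, and their median correlation with Mir155hg was 0.79. Irf4, high in plasma cells, went the other way (r = -0.46). Il4i1 and Bcl2a1b of this list, and Bcl2a1d named above, are among the leading genes of the LZ1-like cluster. Their peak there was thus fixed in advance, and the share of all genes highest in that state is not given. Of 7 reported targets of miR-155, 1 was highest in LZ1-like cells, and the median correlation was 0.25. All such correlations are descriptions over states that share libraries and recipients.

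Among the 12 states Lockd was highest in the dark zone. It reached 95.7, 201 and 122 CPM in DZ3-like cells, a mean of 140 ± 54.9 CPM. DZ2-like cells had 68.3, 74.2 and 71.3 CPM and DZ1-like cells 53.3, 66.5 and 42.9 CPM. These 3 states kept their order without overlap, and the values of every other state were lower than the DZ2-like ones. LZ2-like and Activated_Memory-like cells had the least, 9.91 ± 2.25 and 11.98 ± 1.64 CPM. In CD45.1+ cells, where DZ3-like cells were too few, Lockd was highest in DZ2-like cells at 79.0 ± 16.6 CPM (6 recipients) and lowest in LZ2-like cells at 4.89 ± 3.58 CPM. The highest state moved to Activated2-like cells (151 ± 36.9 CPM) when each cell went to its highest hashtag at 3 times the next, and to DZ2-like cells (79.3 ± 4.60 CPM) without cells above the 97th percentile of UMIs. States with under 20 cells in a recipient are not ranked, and DZ3-like cells of recipient 1 were 23 before these changes. States may thus have entered or left the ranking without a change in level. With the assignment used here, Activated2-like cells (186, 118 and 157 CPM) and CyclingPC_PB-like cells (167, 110 and 131 CPM), which had under 20 cells in at least 1 recipient and are not among the 12, overlapped the DZ3-like values.

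A Lockd count was found in 66 of 87 DZ3-like cells, 75.9%, and in 51.9% of DZ2-like cells. In T cells of both sorts and groups the share was 6.54%. The median depths were 10760, 11921 and 3163 UMIs. After thinning, the shares were 29.9%, 15.8% and 3.19%. All 13 mitotic genes measured, such as Cdc20, Cenpf and Plk1, were highest in the DZ3-like state too, with a median correlation with Lockd of 0.91. Cenpf, Ube2c, Ccnb1, Cdc20 and Hmmr of this list are among the leading genes of the DZ3-like cluster. A peak of the list there was therefore fixed in advance, and the share of all genes highest there is not given. Lockd itself was left out of the clustering. The closest single genes were Mrpl51, a mitochondrial ribosomal protein gene (r = 0.95), Tubb4b, a tubulin gene (r = 0.94), and Cks1b, a cofactor of cyclin-dependent kinases (r = 0.94). Cdkn1b, which lies 3579 bases away on the same strand, had the opposite profile. It was highest in LZtoPrePC_Memory-like cells at 110 CPM and lowest in DZ1-like cells at 21.5 CPM, and its correlation with Lockd over states was -0.75.

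Zfas1 and Gas5 were high in Activated_Memory-like and early germinal centre states and low in dark zone and plasma cells. Zfas1 was at 722, 676 and 814 CPM in Activated_Memory-like and at 659, 621 and 785 CPM in EarlyGC1-like cells, which overlapped. LZ1-like cells followed with 516 ± 102, EarlyGC2-like cells with 503 ± 6.79 and LZ2-like cells with 423 ± 18.9 CPM. The dark zone states had 122 to 165 CPM on average. PC2-like cells had 92.4 ± 10.2 CPM, below the DZ2-like cells next above without overlap, and PC3-like cells had 41.7 ± 7.24 CPM, below those of PC2-like cells in all recipients.

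Gas5 had a flatter profile. Its levels were 955 ± 104 CPM in LZ1-like, 922 ± 121 in Activated_Memory-like, 821 ± 150.5 in EarlyGC1-like and 774 ± 31.4 CPM in LZ2-like cells, each overlapping the next. The dark zone states had 444 to 524 CPM. PC2-like cells had 216 ± 17.2 and PC3-like cells 179 ± 23.0 CPM. Over the 12 states Zfas1 and Gas5 correlated at r = 0.93 in CD45.2+ cells and at r = 0.99 over 8 states in CD45.1+ cells.

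Immunoglobulin transcripts took 37.1 to 44.2% of counts in PC2-like and PC3-like cells of the CD45.2+ sort against 2.27 to 5.76% outside plasma cells. As CPM of the counts outside immunoglobulin genes, a scale added after the data were seen, Zfas1 was at 158 ± 12.2 in PC2-like and 66.8 ± 12.5 in PC3-like cells, and Gas5 at 370 ± 16.96 and 287 ± 40.5. Zfas1 was thus lowest in PC3-like cells on both scales, while its PC2-like level moved into the range of the dark zone. The genes most like Zfas1 were Epb41l4aos (r = 0.98), itself a snoRNA host, Scand1 and 2410006H16Rik, all highest in Activated_Memory-like cells. Those most like Gas5 were Eif3f, a subunit of a translation initiation factor (r = 0.97), Fau, a ribosomal protein gene (r = 0.97), and Pgls (r = 0.97). Of 15 other snoRNA host genes, 2 were highest in the Activated_Memory-like state, and their median correlation with Zfas1 was 0.50. Znfx1, which overlaps Zfas1 on the opposite strand, had a mean of 17.2 CPM in CD45.2+ sums and correlated with Zfas1 at 0.90.

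**Figure D1:**
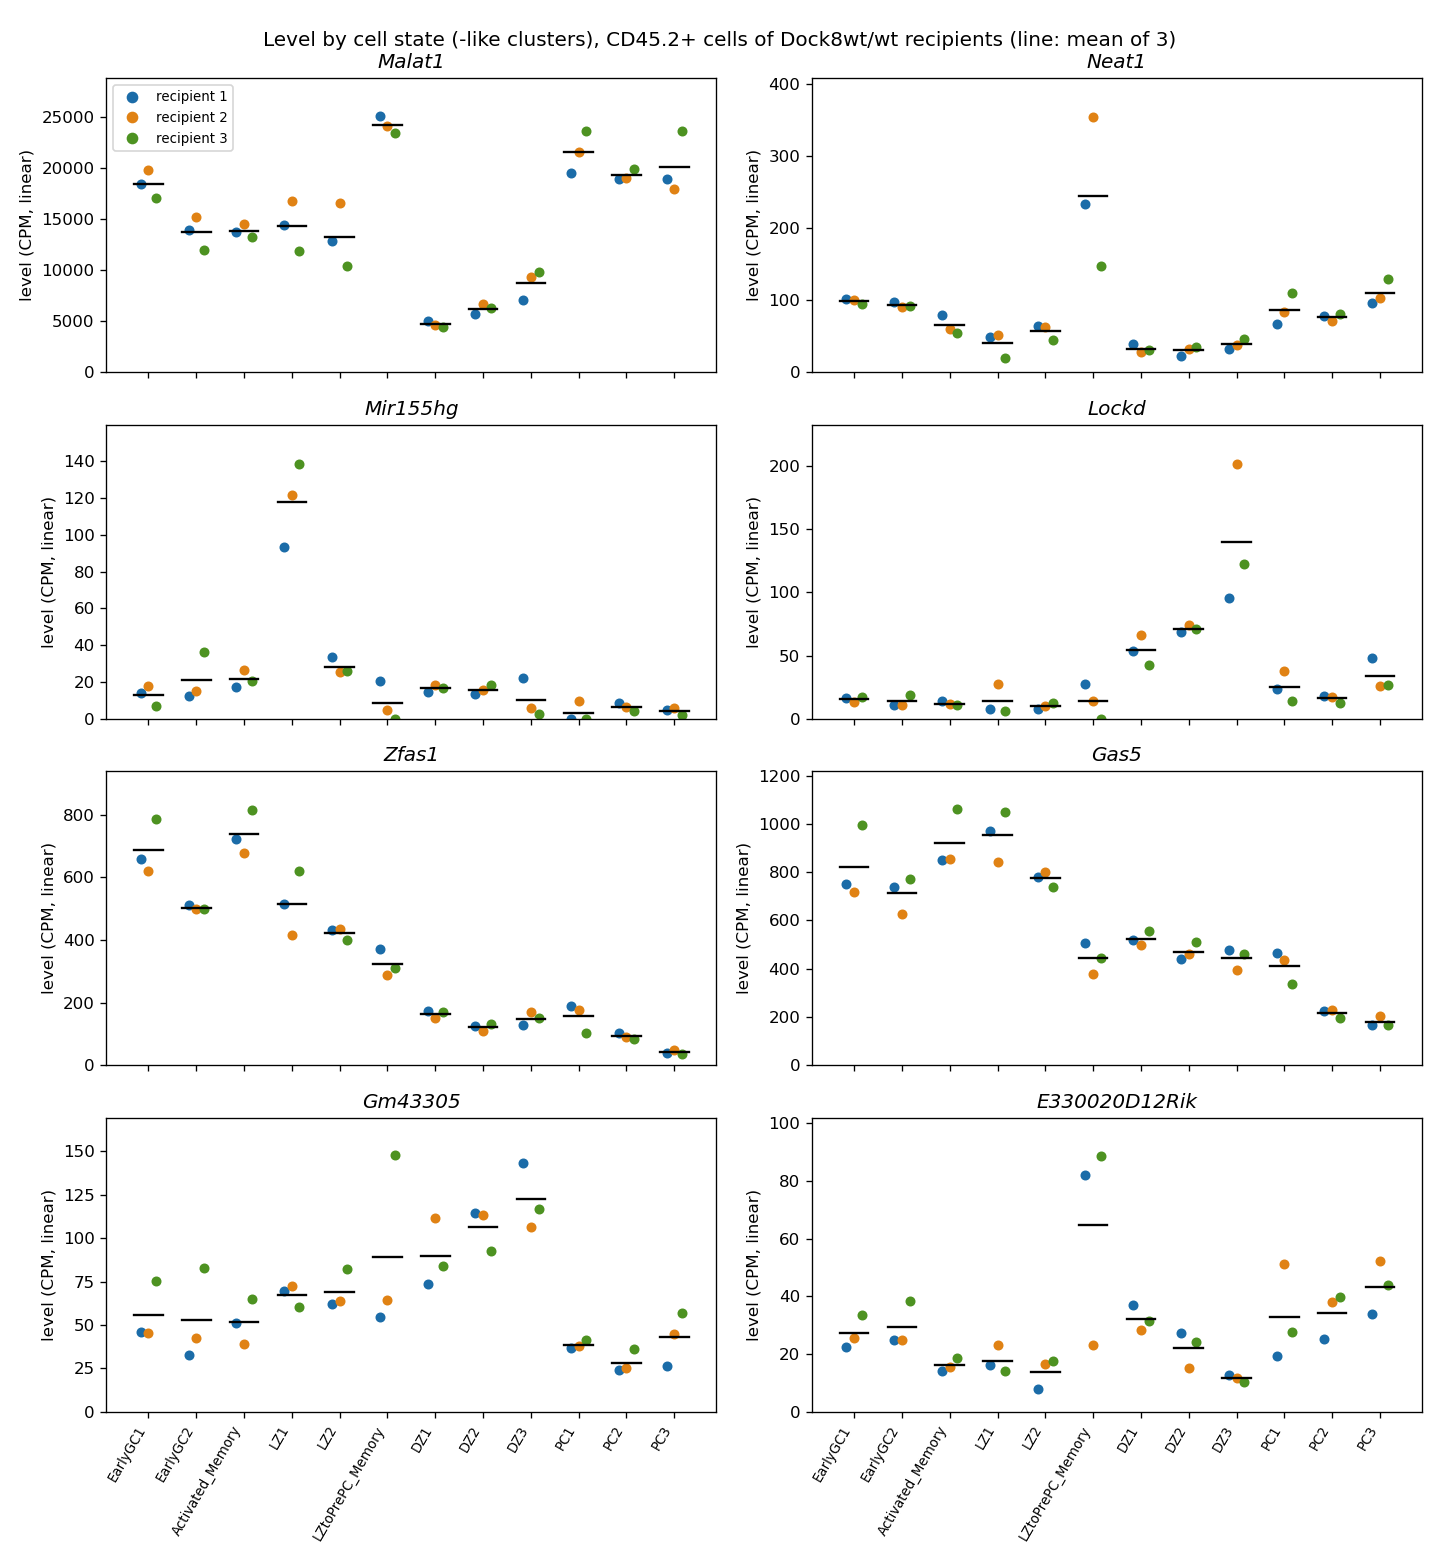
Level of each of the 8 genes (CPM, linear axis) in 12 cell states of CD45.2+ cells from Dock8wt/wt recipients, with 1 point per recipient and a line at the mean of 3. Mir155hg stands out in LZ1-like cells (118 CPM), Lockd in DZ3-like cells (140 CPM), and Zfas1 falls to 41.7 CPM in PC3-like cells.

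Malat1 and Neat1 had their lowest means in the dark zone. Malat1 was at 5014, 4650 and 4405 CPM in DZ1-like cells, the lowest state, at 6219 ± 507 CPM in DZ2-like and at 8764 ± 1454 CPM in DZ3-like cells, 3 levels without overlap. The light zone, Activated_Memory-like and EarlyGC2-like states had means between 13274 and 14369 CPM, each overlapping the next. EarlyGC1-like cells had 18426 ± 1371 CPM and the plasma cell states 19328 to 21614 CPM. In the CyclingPC_PB-like cluster, matched to cycling plasma cells and plasmablasts and outside the 12 states, 11, 31 and 55 cells had 20460, 15860 and 18784 CPM of Malat1 and 38.5, 55.9 and 73.0 CPM of Neat1.

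The highest level of both genes was in the LZtoPrePC_Memory-like cluster, 24244 ± 856 CPM for Malat1 and 233, 354 and 148 CPM for Neat1. The Malat1 values overlapped those of PC1-like cells, and the Neat1 values lay above every PC3-like value, the next state. This cluster of 219 cells in both sorts had a median of 1771 UMIs, 0.277 of its libraries' medians, and a median of 5.73% mitochondrial counts, the most of any cluster, and the part of these in its levels was not tested. Clustering of log-normalized counts put the highest level of both in PC3-like cells, 20200 and 122 CPM. That clustering also held an LZtoPrePC_Memory-like cluster, of 180 cells, whose levels are not given here. It may have had under 20 cells in a recipient and so not been ranked, so this does not show that its level fell. Outside immunoglobulin genes Malat1 was highest in PC2-like cells, at 33207 ± 2152 CPM of those counts.

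Below that cluster, Neat1 had 110 ± 16.9 CPM in PC3-like, 99.04 ± 4.19 in EarlyGC1-like and 93.5 ± 3.99 CPM in EarlyGC2-like cells, each overlapping the next. It was lowest in DZ2-like cells, at 30.5 ± 6.62 CPM, with DZ1-like (32.7 ± 6.19) and DZ3-like cells (39.0 ± 7.44) overlapping it. Malat1 and Neat1, neighbours on chromosome 19, correlated at 0.84 over 12 states and at 0.86 over 8 states of CD45.1+ cells. The genes most like Malat1 were Man1a (r = 0.94), Itch, a ubiquitin ligase gene (r = 0.93), and Hbp1, a transcriptional repressor of cell cycle genes (r = 0.93), and those most like Neat1 were Aup1 (r = 0.95), Stac2 and Paxx. The genes of 12 paraspeckle proteins had a median correlation of -0.37 with Neat1.

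Gm43305 had its highest means in the dark zone, overlapped in CD45.2+ cells by the LZtoPrePC_Memory-like cluster (89.0 ± 51.1 CPM, from 54.8 to 148). In CD45.2+ cells it had 122 ± 19.1 CPM in DZ3-like, 107 ± 12.3 in DZ2-like and 89.8 ± 19.7 CPM in DZ1-like cells, each overlapping the next, and 28.3 ± 6.69 CPM in PC2-like cells, the lowest state. Rangap1, Hnrnpm and Ewsr1, genes of nuclear transport and RNA binding, were most like it (r = 0.98, 0.97 and 0.97). Its level is uncertain, because the last 300 bases of the gene had 29 placements in the genome at 95% identity or more on 9 chromosomes, 13 of them at 99%, so that reads may be shared with copies. For Malat1, Neat1, Mir155hg, Zfas1, E330020D12Rik and Lockd the same search found 1 placement. The last 300 bases of Gas5, which are spliced, gave none at that length.

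E330020D12Rik was low in all 12 states of Dock8wt/wt recipients. It had 82.2, 23.0 and 88.6 CPM in the LZtoPrePC_Memory-like cluster, from 12, 5 and 6 counts, 43.3 ± 9.27 CPM in PC3-like cells and 11.7 ± 1.19 CPM in DZ3-like cells, and each state overlapped the next in the order. The genes most like it over states in CD45.2+ cells, BC004004 (r = 0.85), Ap2a2 and Kcnn4, had correlations of -0.54, -0.15 and 0.40 in CD45.1+ cells. Outside the sums, 6 PC2-like CD45.2+ cells labelled Dock8cpm/cpm in recipient 3 held 84 counts, of which 1 cell of 10357 UMIs held 82, and 3 such cells of recipient 2 held 1 count.

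The first comparison set CD45.2+ against CD45.1+ cells of the same Dock8wt/wt recipients. edgeR's quasi-likelihood test with recipient as block, adjusted over all genes by the Benjamini-Hochberg method, called 329 of 10477 genes (3.14%) at an adjusted p under 0.05, 180 higher (1.72%) and 149 lower (1.42%) in CD45.2+ cells. Malat1 and Neat1 were called, both higher. The other 6 genes were not called, and across all genes the 2 sorts did not overlap in 24.5%.

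Malat1 was at 11675, 13151 and 9781 CPM in CD45.2+ and at 8154, 9429 and 8418 CPM in CD45.1+ sums. Each CD45.2+ sum was above all 3 CD45.1+ sums. The log2 fold change was 0.40 (SE 0.06, adjusted p = 0.00605, higher in 3 of 3 recipients). Without recipient 1 it was 0.33 with an adjusted p of 0.12, and with plasma cells included in the sums it was 0.02 with an adjusted p of 0.884.

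Neat1 was at 66.0, 65.4 and 48.3 CPM in CD45.2+ and at 41.3, 34.3 and 36.3 CPM in CD45.1+ sums, again without overlap. The log2 fold change was 0.64 (SE 0.12, adjusted p = 0.0185). It lost the call without recipient 1 (adjusted p = 0.231) and without recipient 2 (adjusted p = 0.104), and with plasma cells included it was -0.22 (adjusted p = 0.218).

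Zfas1 was close to the threshold. It was at 447, 403 and 444 CPM in CD45.2+ and at 290, 278 and 406 CPM in CD45.1+ sums, where the third CD45.1+ recipient overlapped the CD45.2+ range. The log2 fold change was 0.41 (SE 0.10, adjusted p = 0.0506), and DESeq2 gave an adjusted p of 0.0395. Gas5 was at 676, 658 and 767 CPM against 614, 581 and 676 CPM, or 0.16 on the log2 scale (SE 0.06, adjusted p = 0.174), higher in each recipient. With plasma cells included both were called, at log2 fold changes of 0.64 (adjusted p = 3.87e-06) and 0.32 (adjusted p = 0.00115).

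Mir155hg had 19.7, 24.6 and 25.2 CPM in CD45.2+ and 19.2, 24.9 and 25.8 CPM in CD45.1+ sums, a log2 fold change of -0.02 with a 95% interval of -0.28 to 0.23. Lockd had a mean of 37.5 ± 2.30 against 33.6 ± 3.69 CPM (log2 fold change 0.18, interval -0.07 to 0.42, adjusted p = 0.483). E330020D12Rik had 23.1 ± 2.01 against 20.3 ± 5.33 CPM (log2 fold change 0.14, interval -0.17 to 0.45, adjusted p = 0.683). None of these 3 could be called different at this depth, and the intervals bound the change.

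**Figure D2:**
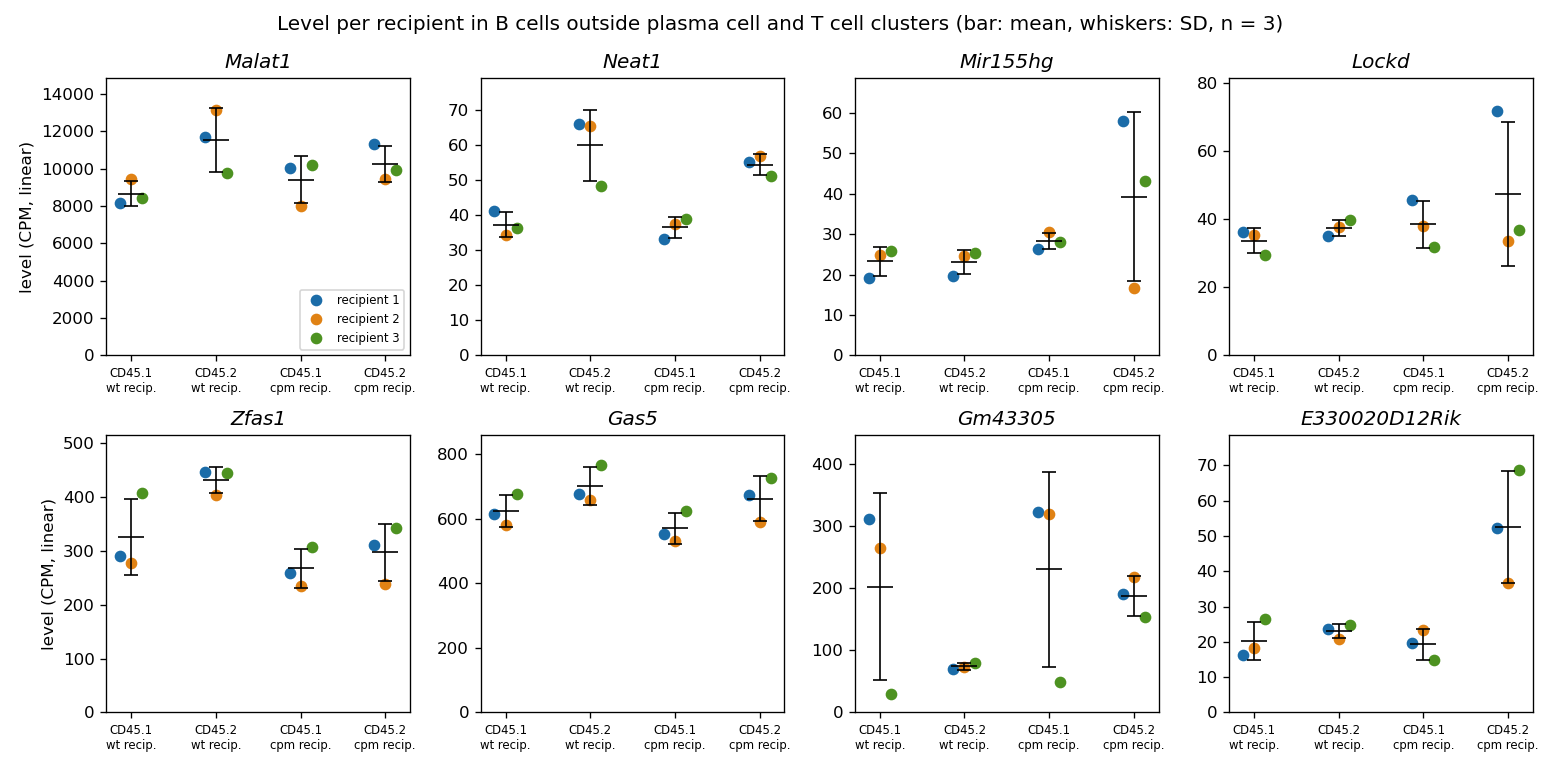
Level of each of the 8 genes (CPM, linear axis) in each sum of B cells outside plasma cell and T cell clusters, with 1 point per recipient, a bar at the mean and whiskers of 1 SD (n = 3). Malat1 and Neat1 are higher in CD45.2+ than CD45.1+ sums of all 3 Dock8wt/wt recipients, and the third recipient of each group is low for Gm43305 in CD45.1+ cells (30.2 and 48.4 CPM).

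Gm43305 differed between recipients more than between sorts. In CD45.1+ cells of Dock8wt/wt recipients it was at 312, 265 and 30.2 CPM, and in those of Dock8cpm/cpm recipients at 322, 320 and 48.4 CPM. In CD45.2+ cells of the same Dock8wt/wt recipients it was at 69.6, 72.4 and 80.2 CPM. Recipients 1 and 2 of each group had more Gm43305 in CD45.1+ cells and recipient 3 of each had less than the CD45.2+ cells beside it. The sort comparison gave -1.11 on the log2 scale (SE 0.48, adjusted p = 0.244). Without recipient 3, which went the other way, it gave -2.01. The direction of that recipient was already seen, so no p-value is given for this fit.

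The same split held within states. In DZ1-like CD45.1+ cells Gm43305 was at 427, 334 and 39.6 CPM in Dock8wt/wt recipients and at 413, 412 and 45 CPM in Dock8cpm/cpm recipients. In DZ2-like cells it was at 416, 549 and 58.4 CPM and at 511, 504 and 91 CPM. In Activated_Memory-like cells the level of recipient 3 was 17.1 CPM against 145 and 166 CPM. The labels give no feature that recipient 3 of both groups shares.

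**Figure D3:**
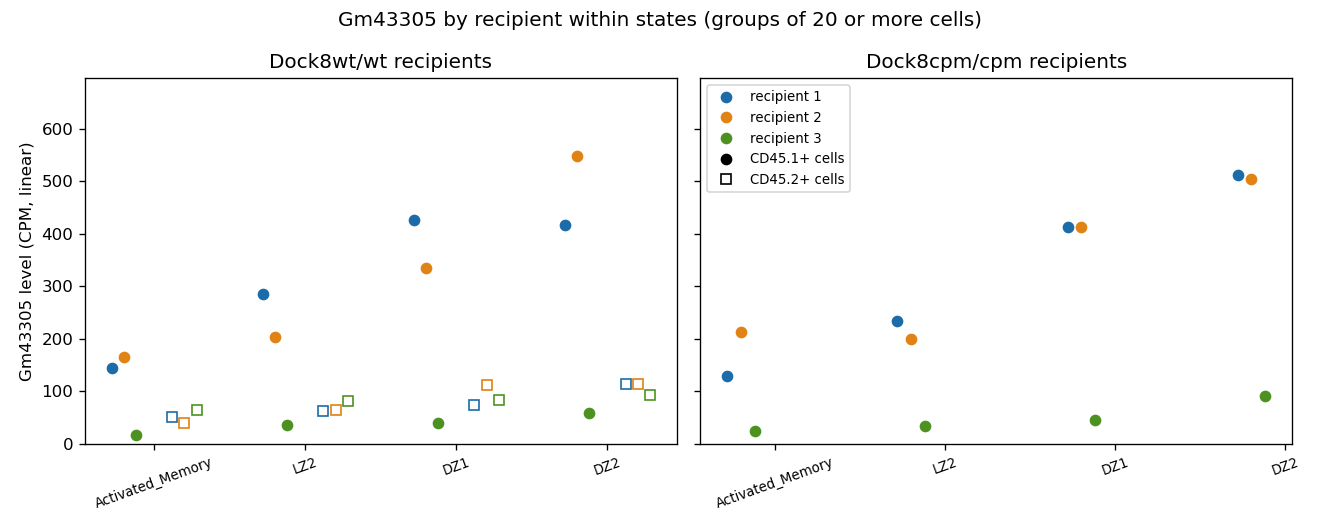
Gm43305 level (CPM, linear axis) by recipient in 4 states with at least 20 cells, CD45.1+ cells as filled circles and CD45.2+ cells as open squares (too few in Dock8cpm/cpm recipients to be drawn). In CD45.1+ cells recipient 3 of both groups lies at 17.1 to 91 CPM, below recipients 1 and 2 in each state.

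The comparison was then made among cells of 1 state, in the 7 states with at least 20 cells in each of the 6 sums. Over all genes, edgeR called 3.15% in Activated_Memory-like (1.25% higher and 1.9% lower in CD45.2+ cells), 3.76% in DZ1-like (2.31% and 1.45%), 3.47% in DZ2-like (2.02% and 1.45%) and 1.35% in EarlyGC1-like cells (0.561% and 0.79%). It called 4.55% in LZ2-like (2.9% and 1.65%), 13.7% in PC2-like (6.57% and 7.12%) and 6.31% in PC3-like cells (3.86% and 2.45%). The share of all genes whose sorts did not overlap was not computed within states or clusters. Zfas1 and Gas5 were each called higher in CD45.2+ cells in 4 states and lower in none. Zfas1 was higher in 20 of 21 pairs of sums from 1 recipient and Gas5 in 16 of 21. E330020D12Rik was higher in 15, Neat1 in 14, Malat1 and Mir155hg in 13 each, Lockd in 12 and Gm43305 in 8. The pairs come from the same recipients and libraries and are not independent. The SE and p-values of the edgeR fits within states need not measure the spread between recipients. For Gm43305 in DZ2-like cells the CD45.1+ level was 341 ± 254 CPM (SD, n = 3), and 1 recipient went against the other recipients. The fit still gave an SE of 0.195 and an adjusted p of 2.4e-07. Very small p-values below are to be read with this limit.

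Among the 7 states the largest of these differences was in plasma cells. In PC2-like cells Zfas1 was at 103, 91.2 and 82.9 CPM in CD45.2+ and at 21.6, 18.96 and 20.9 CPM in CD45.1+ sums. The sorts did not overlap, and the log2 fold change was 1.97 (SE 0.22, adjusted p = 1.95e-06). In PC3-like cells Zfas1 was at 38.7, 49.9 and 36.4 CPM against 13.2, 16.5 and 12.4 CPM, or 1.44 on the log2 scale (SE 0.295, adjusted p = 0.000256). Zfas1 was also called in LZ2-like (log2 fold change 0.49, adjusted p = 0.000438) and DZ1-like cells (0.43, adjusted p = 0.0407). Without the replicate block these 2 calls were lost (adjusted p = 0.0541 and 0.0781), and the PC3-like call was lost without recipient 2 or 3 (adjusted p = 0.0539 and 0.114). The PC2-like call held without the block, by DESeq2 and without each recipient. In Activated_Memory-like and EarlyGC1-like cells, where Zfas1 was highest, the log2 fold changes were 0.05 (SE 0.07) and -0.03 (SE 0.11).

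The PC2-like state joins 3 clusters of 529, 432 and 182 cells, of which 16.1%, 27.5% and 7.69% came from the CD45.1+ sort. By cluster, a description added after the data were seen, Zfas1 had 97.2, 79.0 and 92.4 CPM in CD45.2+ against 38.7, 20.3 and 15.8 CPM in CD45.1+ cells of the first. In the second it had 82.4, 58.0 and 72.0 against 0, 12.2 and 23.0 CPM, from 0 to 12 counts in the CD45.1+ cells. The sorts did not overlap in either cluster. The third held 2, 5 and 1 CD45.1+ cells of Dock8wt/wt recipients, too few to compare. Neat1 was at 79.2, 69.2 and 99.3 against 184, 203 and 179 CPM in the first cluster, and at 85.0, 80.0 and 65.6 against 85.7, 57.0 and 134 CPM in the second, where the sorts overlapped. Malat1 likewise did not overlap in the first (18911 to 21849 against 24136 to 28739 CPM) and overlapped in the second (16218 to 18570 against 16730 to 19497 CPM), while Gas5 was higher in CD45.2+ cells without overlap in both.

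With the minimum lowered to 10 cells a sum, CyclingPC_PB-like and EarlyGC2-like cells could also be compared. In CyclingPC_PB-like cells, where 2.96% of genes were called (2.14% higher and 0.812% lower), Zfas1 had 51.3, 51.8 and 30.5 CPM against 0, 16.98 and 2.14 CPM, from 0, 4 and 2 counts in CD45.1+ cells, and was called higher (log2 fold change 2.90, SE 0.55, adjusted p = 0.00474). In EarlyGC2-like cells 3.65% of genes were called (1.5% higher and 2.14% lower), among them Malat1, higher by 0.56 (SE 0.10, adjusted p = 5.45e-06). No other call among the 8 genes was made in either state.

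Gas5 was called higher in DZ2-like (0.48, SE 0.10, adjusted p = 0.00116), PC2-like (0.57, SE 0.13, adjusted p = 0.00615), PC3-like (0.48, SE 0.14, adjusted p = 0.0185) and DZ1-like cells (0.30, SE 0.08, adjusted p = 0.0261), as log2 fold changes. Its PC2-like levels were 225, 227 and 196 CPM against 104, 156 and 123 CPM, without overlap. Without the replicate block its DZ1-like and PC3-like calls were lost (adjusted p = 0.0608 and 0.0856), and by DESeq2 its DZ1-like and PC2-like calls (adjusted p = 0.147 and 0.0783).

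Malat1 was called higher in CD45.2+ cells in the DZ1-like (log2 fold change 0.47, SE 0.07, adjusted p = 5.02e-07), Activated_Memory-like (0.32, SE 0.03, adjusted p = 6.59e-20) and LZ2-like states (0.28, SE 0.04, adjusted p = 6.5e-06). In PC2-like cells it was called lower, at 18999, 19082 and 19904 CPM against 19412, 21473 and 20944 CPM (log2 fold change -0.25, SE 0.06, adjusted p = 0.00461). Without the replicate block the LZ2-like and PC2-like calls were lost (adjusted p = 0.373 and 0.061), and by DESeq2 the DZ1-like and PC2-like calls (adjusted p = 0.169 and 0.057).

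Neat1 was also called in both directions. In DZ2-like cells it was at 23.0, 32.8 and 35.7 CPM against 11.7, 10.9 and 12.7 CPM, without overlap (log2 fold change 1.41, SE 0.37, adjusted p = 0.0166), from 3 to 5 counts in each CD45.1+ sum, and the call was lost without recipient 2 or 3 (adjusted p = 0.0773 and 0.244). It was also called higher in LZ2-like cells (0.78, SE 0.23, adjusted p = 0.03), though not without the replicate block (adjusted p = 0.0957). In PC2-like cells it was called lower, at 77.5, 70.4 and 81.4 CPM against 119, 109 and 147 CPM (-0.88, SE 0.14, adjusted p = 0.000145). Whether these changes differed between states was not tested.

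**Figure D4:**
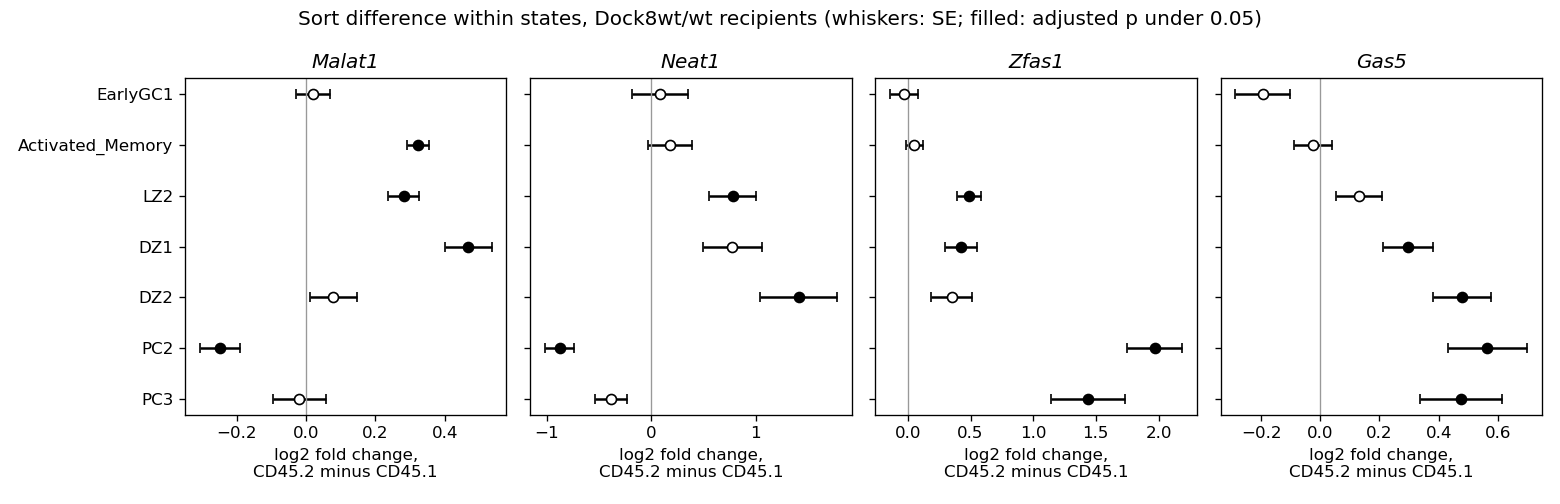
Log2 fold change (CD45.2+ minus CD45.1+) within 7 states of Dock8wt/wt recipients for Malat1, Neat1, Zfas1 and Gas5, with whiskers of 1 SE and filled points where the adjusted p was under 0.05. Zfas1 has its largest values in PC2-like (1.97) and PC3-like cells (1.44), where Malat1 and Neat1 lie at or below 0.

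Gm43305 was called lower in CD45.2+ cells in DZ1-like, DZ2-like, LZ2-like and PC2-like states (log2 fold changes -1.36, -1.47, -1.28 and -1.16), each with recipient 3 in the opposite direction, and DESeq2 called it in none of these 4 (adjusted p = 0.573, 0.425, 1 and 0.71). E330020D12Rik was called higher in PC3-like cells, 43.3 ± 9.27 against 21.3 ± 8.85 CPM (log2 fold change 1.1, SE 0.28, adjusted p = 0.00462), though not without recipient 2 or 3 (adjusted p = 0.362 and 0.254). Mir155hg passed the filter on low counts in 4 states and Lockd in 5, and neither was called in any of them.

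Related genes gave a background for these changes in the Dock8wt/wt sums. Of 15 other snoRNA host genes tested, 2 were called higher and none lower, with a median log2 fold change of 0.20 against 0.00392 over all genes. Snhg9 rose from a mean of 21.0 CPM in CD45.1+ to 108 CPM in CD45.2+ sums (log2 fold change 2.36, SE 0.12, adjusted p = 3.04e-06), and Snhg18 from 12.7 to 25.8 CPM (0.97, SE 0.18, adjusted p = 0.0183). Of 14 other long noncoding RNAs, 1 was called, Mir142hg, the host of miR-142, higher at 103 against 52.9 CPM (0.92, SE 0.12, adjusted p = 0.00235), with a list median of 0.04.

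Of 80 cytosolic ribosomal protein genes, 10 were called higher and 13 lower (median -0.06). Of 18 genes of the B cell receptor, CD40 and NF-kB response, 1 was called higher and 3 lower (median -0.29), among them Irf4, a plasma cell regulator, higher (0.84), and Egr3, an early response gene, and Bcl2a1b, a survival gene, lower (-0.88 and -0.62). Of 12 paraspeckle genes, 7 reported miR-155 targets and 13 mitotic genes none was called by edgeR, with medians of -0.08, -0.16 and 0.21.

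Among the neighbours on the chromosome, Cdkn1b beside Lockd had 59.1 ± 9.59 CPM in CD45.2+ and 50.9 ± 8.47 CPM in CD45.1+ sums (log2 fold change 0.15, SE 0.16, adjusted p = 0.657). Znfx1 across from Zfas1 changed by -0.06 on the log2 scale (SE 0.15, adjusted p = 0.869), Zbtb37 across from Gas5 by 0.31 (SE 0.16, adjusted p = 0.337), and Mrpl39 beside Mir155hg by -0.18 (SE 0.14, adjusted p = 0.503). None of these 4 was called.

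In the Dock8cpm/cpm recipients the same comparison of sorts called 556 of 7684 genes (7.24%), 3.62% higher and 3.62% lower, and E330020D12Rik was the 1 called gene of the 8. It was at 52.4, 36.8 and 68.7 CPM in CD45.2+ sums, from 19, 11 and 43 counts, and at 19.7, 23.5 and 14.7 CPM in CD45.1+ sums. The sorts did not overlap, which 23.6% of all genes also showed, and the log2 fold change was 1.51 (SE 0.25, adjusted p = 8.12e-06). The CD45.2+ values here also entered the genotype contrast that was known when the genes were listed. Assignment of cells by hashtag values normalized over each cell gave 0.73 with an adjusted p of 0.677.

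Neat1 was at 55.1, 56.9 and 51.1 CPM in CD45.2+ and at 33.1, 37.4 and 38.9 CPM in CD45.1+ sums of these recipients, without overlap but with an adjusted p of 0.196 (log2 fold change 0.49, SE 0.22). On the log2 scale Malat1 differed by 0.07 (SE 0.05, adjusted p = 0.512), Zfas1 by 0.09 (SE 0.11, adjusted p = 0.718) and Gas5 by 0.16 (SE 0.08, adjusted p = 0.295), none of them called. Without the 46 cells with 2 or more Xist counts, a check added after the data were seen, these 3 were called, at 0.33 (adjusted p = 0.000243), 0.37 (adjusted p = 0.0462) and 0.36 (adjusted p = 0.0115). The difference between the groups of recipients in the sort comparison was not tested.

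CD45.1+ cells were compared by the genotype of their partner cells. edgeR called 0 of 8676 genes, 607 had an unadjusted p under 0.05, and DESeq2 also called 0. Mir155hg had 26.4, 30.5 and 28.0 CPM beside Dock8cpm/cpm partners and 19.2, 24.9 and 25.8 CPM beside Dock8wt/wt partners, without overlap, as 11.4% of all genes (log2 fold change 0.20, SE 0.17, adjusted p = 0.855). Zfas1 had 267 ± 36.8 against 325 ± 70.8 CPM (-0.33, SE 0.14, adjusted p = 0.651). The 95% intervals of the log2 fold change were narrowest for Malat1 (-0.08 to 0.25) and Gas5 (-0.35 to 0.01) and widest for Gm43305 (-0.81 to 1.23).

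CD45.2+ cells by genotype were the contrast known when the genes were listed, so its values are a description. Over all genes, 21 of 10247 (0.205%) were called, 0.0683% higher and 0.137% lower in the sums labelled Dock8cpm/cpm, and 19.3% did not overlap. Gm43305 was at 190, 217 and 153 CPM in the sums labelled Dock8cpm/cpm and at 69.6, 72.4 and 80.2 CPM in the Dock8wt/wt sums, a log2 difference of 1.18 (SE 0.14). The first group lay above the second in every recipient. E330020D12Rik, with the CD45.2+ values given above, differed by 1.17 (SE 0.22) and also did not overlap.

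Zfas1 was at 311, 238 and 342 CPM in sums labelled Dock8cpm/cpm, all below the Dock8wt/wt sums (log2 difference -0.62, SE 0.12). Mir155hg was at 57.9, 16.7 and 43.1 CPM, from 21, 5 and 27 counts, on both sides of the Dock8wt/wt range (0.71, SE 0.26). Malat1 (-0.29, SE 0.09), Neat1 (-0.28, SE 0.20), Gas5 (-0.18, SE 0.10) and Lockd (0.18, SE 0.22) overlapped between the groups. Without the 46 cells with 2 or more Xist counts, the labelled sums had 152, 110 and 172 CPM of Gm43305, 65.7, 73.5 and 77.7 CPM of E330020D12Rik and 332, 323 and 406 CPM of Zfas1. Gm43305 and E330020D12Rik still lay outside the Dock8wt/wt range, while the highest Zfas1 value entered it.

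Among light and dark zone cells with the LZtoPrePC_Memory-like cluster, 20 to 42 per recipient labelled Dock8cpm/cpm, 0.0527% of all genes were called, 0.0422% higher and 0.0105% lower. Gm43305 stood at 236, 266 and 160 CPM against 92.8, 94.1 and 88.4 CPM (1.15, SE 0.16). E330020D12Rik was at 11.8, 10.7 and 57.8 CPM against 28.7, 19.6 and 24.6 CPM, with values on both sides, and Zfas1 was at 298.6, 144 and 245 CPM against 207, 244 and 215 CPM. Without that cluster, a subset added after the data were seen, 36, 18 and 41 cells remained and 0.0635% of genes were called, 0.0423% higher and 0.0212% lower. There Gm43305 was at 237, 269.5 and 160 CPM against 93.8, 95.02 and 87.7 CPM, E330020D12Rik at 12.04, 10.8 and 58.1 CPM against 27.4, 19.5 and 23.9 CPM, and Zfas1 at 301, 140.2 and 246 CPM against 203, 242 and 214 CPM. Among EarlyGC1-like cells, 15 to 34 per recipient, the share was 0.215%, 0.137% higher and 0.0781% lower. E330020D12Rik was at 153, 52.0 and 87.5 CPM, from 13, 5 and 16 counts, against 22.4, 25.6 and 33.7 CPM (1.81, SE 0.34). Zfas1 was at 354, 323 and 487 CPM there against 659, 621 and 785 CPM (-0.83, SE 0.16), and Gm43305 at 106, 146 and 153 CPM against 45.8, 45.24 and 75.4 CPM (1.41, SE 0.28). E330020D12Rik and Zfas1 did not overlap between the groups among EarlyGC1-like cells and overlapped among light and dark zone cells. Gm43305 did not overlap in either. The share of all genes without overlap was not computed for these subsets, so this describes the values only. The contrast between the 2 subsets was not tested.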

How the data were processed

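Single-cell RNA libraries (2) and hashtag libraries (2) were read from the matrices the authors deposited as UMI counts per gene and hashtag counts per barcode, without normalization. Per the submitters' processing notes, Cell Ranger 5.0.1 and Seurat 4.0 were used on mm10 (GRCm38). Recipient and group came from the authors' hashtag table, and recipients are the replicates. All 6 recipients shared each library.

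Hashtags were assigned with HTODemux in Seurat 5.3.0 (R 4.3.3) at a quantile of 0.99. Barcodes of 1 hashtag were kept if they had 100 to 5500 genes and less than 10% mitochondrial counts, the limits of the study. No doublet caller was run, and cells above the 97th percentile of UMIs were left out as an alternative. Cells were clustered on 30 principal components of SCTransform values at resolution 0.9, with the 8 genes and sex-linked genes left out of the 3000 variable genes. A cluster took the name of the study's list sharing most of its 50 highest genes, with at least 3 markers. The 3 clusters named PC2 were joined, and their levels by cluster, like the light and dark zone subset without the LZtoPrePC_Memory-like cluster, were added after the data were seen.

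Counts summed per recipient and sort were tested with edgeR 4.0.16 (quasi-likelihood test, TMM, filterByExpr, recipient as block between sorts), with Benjamini-Hochberg adjustment over all genes at 0.05. DESeq2 1.42.0 was an alternative, as were other scaling, low-count, hashtag and cell filters, resolution 1.2, log-normalization, thinning to 2000 UMIs, plasma cells included and each recipient left out. The sort fit was also run on simulated counts drawn without a recipient effect, which cannot show how the block behaves where recipients differ. Both sorts of a recipient come from the same animal, so the block follows from the design. Over 5399 genes, the deviations of both sorts from their group means correlated at -0.05, 0.31 and -0.01 in Dock8wt/wt and at 0.09, 0.09 and 0.03 in Dock8cpm/cpm recipients.

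The 8 genes, the gene lists and the tests were chosen with earlier results of these data known. Named besides the 8 genes are the 3 genes most like each over states (mean of at least 20 CPM), the neighbouring genes, up to 3 called genes per list, Dock8 and the sex-linked genes. Further list members and marker genes were named after their values were seen. Depth was 298916 to 12616452 UMIs per sum, and 95% intervals of shares and values of 0 cover counting error only. The 95% intervals of log2 fold changes come from the SE of the edgeR fit and a normal quantile, which is narrow for so few recipients. Copies of promoter windows and of the last 300 bases were sought with blastn 2.17.0 at 95% identity over 90% of length.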

Additional observations from a re-analysis of the deposited data

How the results depend on the processing

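Depth limited the CD45.2+ sums labelled Dock8cpm/cpm most, with as few as 5 counts of Mir155hg. The number of genes called was unstable. Between sorts in Dock8wt/wt recipients it was 194 by DESeq2, 818 without a filter on low counts, 202 with each cell given to a hashtag at 3 times the next, 1976 with plasma cells and 42 to 1592 with a recipient left out (1592 without recipient 3). In Dock8cpm/cpm recipients it was 166 by DESeq2, 1356 by the 3-fold hashtag rule, 98 with hashtags normalized over each cell and 287 to 403 with a recipient left out. For CD45.1+ cells by partner it was 57 without the filter, 1 with plasma cells and 0 to 9 with a recipient left out. For CD45.2+ cells by genotype it was 80 by DESeq2, 145 without the filter, 12 by the 3-fold rule, 130 with plasma cells, 132 without the cells with 2 or more Xist counts and 7 to 60 with a recipient left out. Without the replicate block the sort comparison called 356 genes in Dock8wt/wt and 404 in Dock8cpm/cpm recipients and changed no call among the 8 genes there. Within states the fit without the block called 160 genes in Activated_Memory-like, 26 in EarlyGC1-like, 94 in LZ2-like and 150 in PC3-like cells. DESeq2 called 119 in Activated_Memory-like, 97 in DZ1-like, 93 in DZ2-like, 66 in LZ2-like, 330 in PC2-like and 76 in PC3-like cells. With a recipient left out the counts were 114 to 259 in Activated_Memory-like, 145 to 283 in DZ1-like, 114 to 213 in DZ2-like, 15 to 62 in EarlyGC1-like, 72 to 314 in LZ2-like and 49 to 299 in PC3-like cells. With a minimum of 10 cells instead of 20, 102 of 3450 genes were called in CyclingPC_PB-like and 160 of 4387 in EarlyGC2-like cells. Of the calls within states, Malat1 in Activated_Memory-like, Neat1 and Zfas1 in PC2-like and Gas5 in DZ2-like cells held without the block, by DESeq2 and without each recipient.

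Log2 fold changes that turned direction included small values and values as large as some called elsewhere, up to 0.897 for Neat1. Between sorts in Dock8wt/wt recipients Mir155hg was 0.0709 by the 3-fold hashtag rule, 0.109 with hashtags normalized over each cell, 0.205 with plasma cells and -0.0468 to 0.00912 with a recipient left out. With plasma cells Neat1 was -0.223 and Lockd -0.0982, and E330020D12Rik was -0.00421 to 0.369 with a recipient left out. In Dock8cpm/cpm recipients Gm43305 was 0.0314 by DESeq2, 0.178 by the 3-fold rule, 0.362 with hashtags normalized over each cell, 0.0693 with plasma cells and -0.695 to 0.369 with a recipient left out. There Malat1 was -0.00355 without the filter, -0.263 with plasma cells (adjusted p = 0.00171) and -0.0074 to 0.176 with a recipient left out, Lockd was -0.00558 to 0.368 with a recipient left out, and Neat1 was -0.229 and Mir155hg -0.27 with hashtags normalized over each cell. In CD45.1+ cells by partner Neat1 was 0.152 and E330020D12Rik 0.0108 by the 3-fold rule. With hashtags normalized over each cell these were 0.897 and 0.209, Gm43305 was -0.376 and Lockd -0.455, and with plasma cells Malat1 was -0.265 and Lockd -0.106. With a recipient left out E330020D12Rik was -0.356 to 0.117, Gm43305 -0.364 to 0.719 and Neat1 -0.146 to 0.0166. In CD45.2+ cells by genotype Lockd was -0.0155 by the 3-fold rule, -0.0114 with hashtags normalized over each cell and -0.197 to 0.39 with a recipient left out. Among state levels, Lockd in DZ3-like cells was 195 CPM after thinning, and Malat1 in LZtoPrePC_Memory-like cells was 25500 CPM of the counts outside immunoglobulin genes. The causes were not tested. The alternatives on Xist counts and on immunoglobulin genes were chosen after seeing the data.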

Other observations

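Of the values in no comparison above, the T cell cluster of the CD45.2+ sort in Dock8wt/wt recipients had Gas5 at 604, 646 and 970 CPM and Malat1 at 19591, 18275 and 13612 CPM, from 11, 31 and 14 cells.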
